A study of Mus musculus with 30 samples.

Results

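The 84 genes described here encode subunits of the enzyme complexes of oxidative phosphorylation and lie in the nucleus, and they were followed in 30 RNA sequencing libraries of cultured mouse muscle cells. They were chosen by symbol, as all protein-coding genes named as Ndufa, Ndufb, Ndufc, Ndufs or Ndufv subunits, as Sdha to Sdhd, as Uqcr or Cyc1, as Cox4 to Cox8, or as Atp5. Assembly factors, Atp5s and 10 pseudogenes with such names were left out. The 84 members, of 30204 genes in all, comprised 37 of complex I, 4 of complex II, 9 of complex III, 18 of complex IV and 16 of complex V.

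Oxidative phosphorylation is carried out in the inner mitochondrial membrane. Complexes I and II pass electrons from NADH and succinate to coenzyme Q, complex III passes them on to cytochrome c, complex IV hands them to oxygen, and complex V makes ATP from the proton gradient that complexes I, III and IV build up. Muscle fibres are known for their large content of these complexes and for their own forms of several complex IV subunits, which take the place of forms found in most other tissues.

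C2C12 is an established line of mouse myoblasts, the precursor cells of muscle, which stop dividing and fuse into myotubes when serum is lowered. The study asked how the culture surface changes myotubes of this line, and set them beside primary cells. C2C12 cells were sequenced as myoblasts on plastic (day 0) and as myotubes at days 4 and 7 on plastic, on unpatterned gelatin hydrogel and on patterned gelatin hydrogel, a gel molded with parallel grooves. Primary myoblasts, from hindlimb muscle of 8-week-old C57BL/6J mice, were sequenced at day 0 (labelled plastic) and as myotubes on patterned gelatin at days 4 and 7. Each of the 10 groups had 3 libraries. The labels name no genetic change in any group. All C2C12 groups came from 1 line, of which the study grew more than 1 batch, and the labels do not say which batch a library is from. Whether each primary replicate came from a mouse of its own is not stated either. In both kinds of cells the myotubes had been briefly trypsinized to leave fewer unfused cells behind. Because the cultures were not sorted, fewer cells of a type and less RNA per cell cannot be told apart in any value below.

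The libraries held 13.11 to 59.4 M estimated counts (median 27.3 M). Summed over 10 myotube markers, the level was 1255 to 1688 TPM, the transcripts of a gene scaled for length and to a fixed library sum, in C2C12 myoblasts and 14600 to 20480 in C2C12 myotubes, and it was 2055 to 3711 in primary myoblasts and 11330 to 25390 in primary myotubes. The summed fibroblast markers were at 467 to 1313 TPM in C2C12 groups and at 8.08 to 298 in primary groups. Endothelial, macrophage, adipocyte and Schwann cell markers summed to at most 14.97 TPM in any library. Libraries that stood apart from their group were replicate 3 of C2C12 patterned gelatin at day 7, in which 14 of 79 members with a mean of at least 10 TPM lay more than 0.5 (log2) from the median of the other libraries, and the primary libraries numbered 3, in which 23, 7 and 8 members did so at days 0, 4 and 7. The primary library numbered 3 was also low in myotube genes: Ckm, muscle creatine kinase, was at 14.06 TPM in it at day 7, beside 776.6 and 574.1 TPM. Replicate 1 of primary myoblasts had 11 such members, and it was left out only singly. Counts of called members, and values of single genes that these libraries decide, are given with and without them.

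Per length, in TPM, most members were among the abundant messages of every culture. Over the 30 libraries, 79 of the 84 had a mean of at least 10 TPM and 75 a mean of at least 100 TPM, and the median member was at 272.2 TPM. The highest was Atp5b, the catalytic beta subunit of complex V, at 2062 TPM. In complex I the highest mean belonged to Ndufa4, at 766.7 TPM, a subunit that is now counted with complex IV but keeps its complex I name. Sdhc led complex II at 322.8 TPM, Uqcrh, the hinge protein, led complex III at 707.5 TPM, and Cox6b1 led complex IV at 975.1 TPM. These ranks are of means over all 30 libraries and do not hold in each group. In primary cells at day 7, mean Sdhc was 195.6 TPM, below Sdhb at 254 and Sdha at 249.9, and Uqcrh was 543.9 TPM, below Uqcrq at 868.2. The lowest means of complexes II, III and V were still 187 TPM for Sdhd, 194.1 TPM for Uqcrfs1 and 160.8 TPM for Atp5k. The 4 members below 1 TPM in every library were forms known from other tissues or states, Ndufa4l2, Cox4i2, Cox7b2 and Cox8c, and Cox8c was listed at 0 in all 30 libraries. These 4 did not pass the filter on low counts and were not tested, and Cox6b2 passed it only in fits with primary cells.

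Summed, the members made up 1.94% to 2.12% of all TPM in C2C12 myoblasts, the lowest of the 10 groups. At day 4 the share was 2.70% to 2.75% on plastic, 2.96% to 3.19% on unpatterned gelatin and 3.05% to 3.20% on patterned gelatin. At day 7 it was 2.69% to 2.87% on plastic, 2.81% to 3.26% on unpatterned gelatin and 3.12% to 3.52% on patterned gelatin. Thus no library on patterned gelatin fell within the range of plastic on either day, whereas the ranges of unpatterned and patterned gelatin overlapped on both. At day 4 the TPM scale was shifted for all genes. The median log2 ratio of mean TPM, patterned to plastic, was then 0.14 over all genes and 0.20 over members. Primary myoblasts spanned 2.36% to 3.25%, with library 3 the highest, and primary myotubes 3.17% to 3.23% at day 4 and 3.21% to 3.40% at day 7. Within the sum the shares of the complexes over the 30 libraries were 26.19% to 31.46% for complex I, 2.29% to 3.71% for complex II, 11.54% to 14.31% for complex III, 19.88% to 24.09% for complex IV and 31.46% to 35.14% for complex V. In relation to its size, complex II had the widest range.

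**Figure D1:**
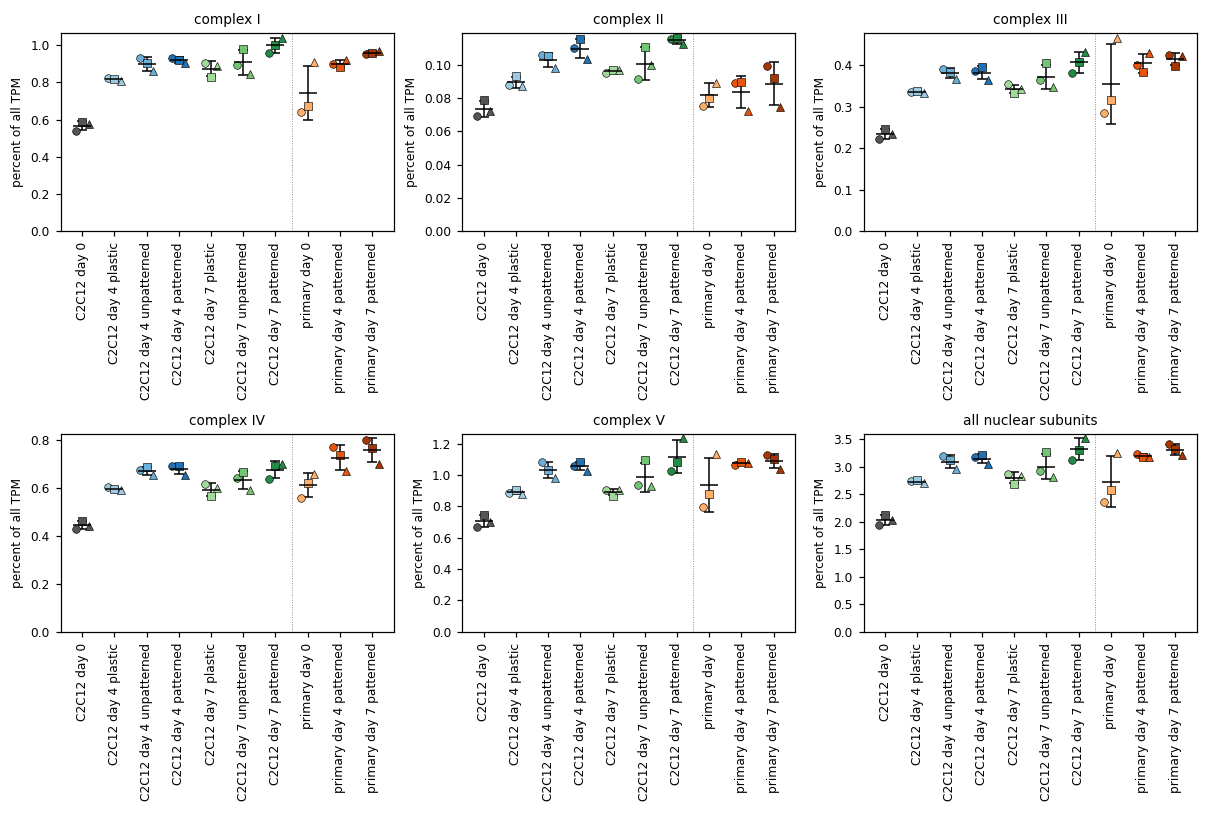
Summed TPM of the nuclear subunits of each complex, and of all 84, as a percent of all TPM (vertical axes, from 0) in the 10 groups. Each point is 1 library (circle, square and triangle for replicates 1, 2 and 3), with the mean and SD as bars. C2C12 myoblasts are lowest in each panel but that of complex II, where primary libraries overlap them, and C2C12 myotubes on patterned gelatin at day 7 reach 3.12% to 3.52% in all.

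Nearly the whole set rose from C2C12 myoblasts on plastic to day 4 on patterned gelatin. Stage and surface changed together in this comparison, and the part of the surface was not tested. The members' share of all TPM was 1.94% to 2.12% in myoblasts and 2.70% to 2.75% at day 4 on plastic. Between myoblasts and day 4 on patterned gelatin, 72 of 79 members tested rose and none fell, where 60.1% of all 14844 genes tested changed in either direction, 30.9% rose and 29.3% fell (edgeR quasi-likelihood test, adjusted p under 0.05). The median log2 fold change was 0.67 over the members and −0.02 over all genes. The rise took in 35 of 36 members of complex I, all 4 of complex II, all 9 of complex III, 12 of 14 of complex IV and 12 of 16 of complex V. Every TPM at day 4 lay above every TPM of the myoblasts for 73 members, a pattern found in 28.6% of all genes, and below for 2, as in 33.7% of all genes. With library totals in place of TMM factors, which moved the median of all genes by −0.21, 64 members rose and 2 fell. Over the same interval the summed proliferation markers went from 1126 to 1327 TPM down to 162.1 to 174.6 TPM.

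By complex, the medians of the log2 fold changes were 0.69 for complex I, 0.67 for complex II, 0.68 for complex III, 0.62 for complex IV and 0.63 for complex V. Ndufs1, an iron-sulphur subunit in the NADH-oxidising arm of complex I, was at 114, 116 and 100.2 TPM in the 3 myoblast libraries and at 219, 220.2 and 216 TPM at day 4, with no overlap, and rose by 1.23 ± 0.08 (log2 fold change ± SE, adjusted p = 1.42e-10). Ndufb9, an accessory subunit of its membrane arm, rose by 1.05 ± 0.14 (adjusted p = 2.24e-06), from 314 to 339 TPM to 644 to 697 TPM. In complex II the flavoprotein Sdha rose by 0.77 ± 0.06 (adjusted p = 2.88e-09), the iron-sulphur protein Sdhb by 0.57 ± 0.18 (adjusted p = 0.0106), and the membrane anchors Sdhc and Sdhd by 0.57 ± 0.09 and 0.76 ± 0.08 (adjusted p = 3.05e-05 and 1.73e-07). Uqcrfs1, the Rieske iron-sulphur protein of complex III, went from 106 to 118 TPM to 192 to 227 TPM, a rise of 0.92 ± 0.12 (adjusted p = 1.76e-06). Atp5b rose by 0.58 ± 0.07 (adjusted p = 9.32e-07), from 1545 to 1792 TPM to 2243 to 2498 TPM. The 7 members not called were Ndufa2, Cox6a1, Cox8a, Atp5e, Atp5g2, Atp5j2 and Atp5k, with log2 fold changes from −0.63 for Cox6a1 to 0.51 for Atp5e.

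The largest changes of the set were those of 3 complex IV subunits known as the heart and skeletal muscle forms, Cox6a2, Cox7a1 and Cox8b. Each has a partner, Cox6a1, Cox7a2 and Cox8a, that most tissues use. Cox6a2 was at 1.22, 2.07 and 2.65 TPM in C2C12 myoblasts and at 167, 135 and 157 TPM at day 4 on patterned gelatin, a rise of 6.30 ± 0.31 (adjusted p = 1.45e-12). Cox8b went from 2.93, 7.4 and 7.32 TPM to 189, 208 and 177 TPM, a rise of 5.0 ± 0.25 (adjusted p = 1.77e-12). Cox7a1 went from 3.31, 5.40 and 6.79 TPM to 141, 132 and 120 TPM, a rise of 4.66 ± 0.26 (adjusted p = 7.81e-12). In none of the 3 did the groups overlap. The partners had values near 0 beside these. Cox7a2 rose by 0.55 ± 0.13 (adjusted p = 0.00112), whereas the values of Cox6a1 and Cox8a were −0.63 ± 0.30 and −0.23 ± 0.12 (adjusted p = 0.0819 and 0.106).

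As shares of their pair, in TPM, the muscle forms stayed in the minority in C2C12 myotubes with few exceptions. Cox6a2 made up 0.339% to 0.642% of the Cox6a pair in myoblasts, 33.54% to 41.39% over the 9 C2C12 libraries at day 4 and 27.72% to 51.96% over the 9 at day 7. Cox8b went from 0.647% to 1.46% of its pair to 28.53% to 33.67% at day 4 and 34.15% to 45.36% at day 7. In primary cells Cox6a2 was already at 11.85% to 16.6% in myoblasts and reached 65.29% to 73.26% at day 4 and 67.54% to 77.25% at day 7, above every C2C12 library. Cox8b likewise reached 46.77% to 51.41% and 47.05% to 57.5% in primary myotubes, also above every C2C12 library. Cox7a1 did not follow this order: its share of the Cox7a1 and Cox7a2 pair was 27.36% to 28.99% on patterned gelatin at day 4 and 35.96%, 32.29% and 54.11% in replicates 1, 2 and 3 at day 7 in C2C12 cells, and 16.57% to 20.08% and 19.04% to 23.47% in primary cells.

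**Figure D2:**
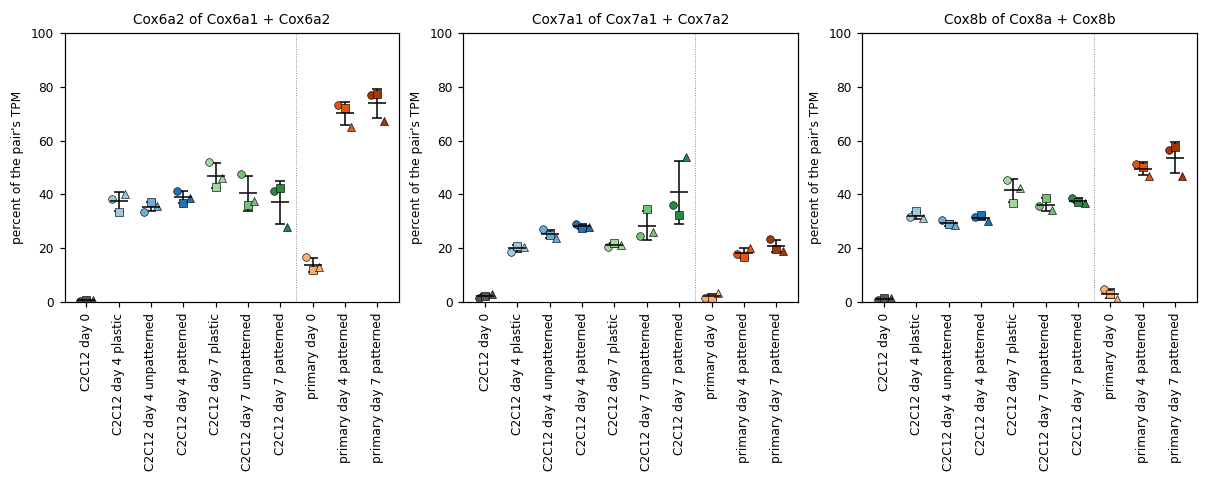
Share of the muscle form in the summed TPM of each pair of complex IV subunits (vertical axes, percent, 0 to 100) in the 10 groups. Each point is 1 library (circle, square and triangle for replicates 1, 2 and 3), with the mean and SD as bars. Cox6a2 and Cox8b are highest in primary myotubes, at up to 77.25% and 57.5%, and Cox7a1 is highest in C2C12 cells on patterned gelatin at day 7, at up to 54.11%.

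The windows upstream of these genes are shown because Cox7a1 and Cox8b rose by over 4 on the log2 scale and their partners by less than 1. Each is the 250 bases before the RefSeq start of the gene on GRCm38.p6, 5′ to 3′ on the gene's strand, and capitals mark an E-box of the letters CAGCTG. No window for Cox6a2 was matched. The Cox7a1 window is chr7:30183921-30184170 (+ strand), that of Cox8b chr7:140900447-140900696 (− strand), that of Cox7a2 chr9:79759854-79760103 (− strand) and that of Cox8a chr19:7217617-7217866 (− strand).
Cox7a1: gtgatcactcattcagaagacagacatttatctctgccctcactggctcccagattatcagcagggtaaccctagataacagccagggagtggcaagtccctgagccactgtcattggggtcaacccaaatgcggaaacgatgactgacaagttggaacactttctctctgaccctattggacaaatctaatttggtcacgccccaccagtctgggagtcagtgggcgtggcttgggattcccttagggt
Cox8b: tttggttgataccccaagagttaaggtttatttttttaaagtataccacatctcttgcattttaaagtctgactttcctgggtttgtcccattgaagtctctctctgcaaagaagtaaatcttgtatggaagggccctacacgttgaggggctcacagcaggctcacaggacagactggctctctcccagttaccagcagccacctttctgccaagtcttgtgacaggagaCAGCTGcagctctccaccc
Cox7a2: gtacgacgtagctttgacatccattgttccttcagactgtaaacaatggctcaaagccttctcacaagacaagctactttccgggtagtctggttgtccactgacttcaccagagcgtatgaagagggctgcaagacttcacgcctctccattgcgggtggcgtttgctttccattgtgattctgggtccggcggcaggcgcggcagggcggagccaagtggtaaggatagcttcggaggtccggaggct
Cox8a: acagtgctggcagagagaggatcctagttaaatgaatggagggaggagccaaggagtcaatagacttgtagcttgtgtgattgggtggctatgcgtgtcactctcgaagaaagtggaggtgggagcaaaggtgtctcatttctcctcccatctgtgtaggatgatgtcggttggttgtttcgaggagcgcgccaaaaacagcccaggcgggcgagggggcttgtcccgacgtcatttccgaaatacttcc

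Of the 84 members, 67 matched a RefSeq window. The E-box, the core bound by myogenic factors of the MyoD family, starts 19 bases before the Cox8b start. It lay on either strand in 6 of the 67 windows (8.96%), and in 13% of all 32851 windows. The palindrome of 10 bases known for the factor NRF1 was found in 4 members (5.97%, Atp5g2, Atp5k, Cox6a1 and Ndufa11) and in 0.782% of all windows. CCGGAAGT, of the ETS type that GABP binds, was in 4.48% of the member windows and 2.88% of all, and TCAAGGTCA, of the estrogen-related receptors, in 1.49% and 0.387%. TATAAA, the TATA box, was in 8.96% and 12.4%. A match describes the letters of the window and not a bound site.

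From day 4 to day 7 on patterned gelatin, 17 members rose and 5 fell in C2C12 cells, where 20.3% of all genes changed, 11.3% up and 9.03% down. Those that rose included all 3 muscle forms, by 0.62 ± 0.20 for Cox6a2, 0.60 ± 0.17 for Cox8b and 0.59 ± 0.18 for Cox7a1 (adjusted p = 0.0347, 0.0192 and 0.0259). The highest values were 1.21 ± 0.25 for Ndufa2, an accessory subunit of complex I (adjusted p = 0.00542), 1.19 ± 0.26 for Atp5e, the epsilon subunit of the rotor stalk of complex V (adjusted p = 0.00632), and 0.95 ± 0.30 for Cox6a1 (adjusted p = 0.0348). The lowest were −0.97 ± 0.20 for Atp5g2 (adjusted p = 0.00511), −0.78 ± 0.16 for the complex I subunit Ndufb4 (adjusted p = 0.00425) and −0.48 ± 0.13 for the complex I subunit Ndufa12 (adjusted p = 0.0175). Replicate 3 of day 7 stood apart in these genes. Atp5e was at 771, 797 and 1508 TPM in the 3 day 7 libraries, beside 524 to 577 TPM at day 4, and replicate 3 was also the extreme for Ndufa2 at 665 TPM, Cox6a1 at 648 TPM, Atp5g2 at 100.3 TPM, Ndufb4 at 32.6 TPM and Ndufa12 at 97.8 TPM. Without it, 1511 of about 15010 genes changed. Of the members 2 rose and 2 fell then, and these were Ndufa2 at 0.71, Atp5e at 0.70, Atp5g2 at −0.76 and Ndufb4 at −0.66 (adjusted p = 0.0269, 0.0364, 0.0166 and 0.0206). The mean fragment length of the libraries was 176 to 190 bases at day 7 and 234 to 248 at day 4. With all libraries and an offset for effective transcript length 8 members rose and 8 fell, where 2588 of about 14840 genes changed. The share of the fragment length in the difference was not tested otherwise. With a fit of these 6 libraries alone no member passed, where 224 of about 14020 genes did.

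In primary cells fewer members passed the threshold from day 0, labelled plastic, to day 4 on patterned gelatin. Stage and surface changed together here too. Between myoblasts and day 4, 28 of 80 members rose and 3 fell, where 42.6% of all genes changed, 20.2% rose and 22.4% fell, and the median was 0.29 over members and −0.04 over all genes. Of those that rose, 15 belonged to complex I, 1 to complex II, 4 to complex III, 5 to complex IV and 3 to complex V. Cox8b was at 34.7, 27.5 and 9.67 TPM in myoblasts and at 549, 498 and 415 TPM at day 4, a rise of 4.38 ± 0.36 (adjusted p = 5.31e-05). Cox7a1 rose by 3.53 ± 0.41 (adjusted p = 0.000255), from 3.82, 5.07 and 10.46 TPM to 76.5, 74.9 and 76.0 TPM. Cox6a2 rose by 2.89 ± 0.25 (adjusted p = 6.35e-05), from 57.0, 38.3 and 60.7 TPM to 459, 335 and 333 TPM. All 3 pairs of groups were apart.

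The 3 members that fell in primary cells were all of complex IV, and 2 of them were partners of muscle forms. Cox6a1 changed by −1.01 ± 0.24 (adjusted p = 0.00898), from 287, 285 and 410 TPM to 168, 129 and 177 TPM. Cox8a was at −0.63 ± 0.14 (adjusted p = 0.00572), from 717, 860 and 792 TPM to 519, 491 and 472 TPM. Cox6b2, known as the testis form of its subunit, was at 25.1, 30.2 and 20.6 TPM in primary myoblasts and at 3.36, 2.65 and 0.191 TPM at day 4, a fold change of −3.45 ± 0.78 (adjusted p = 0.00705). In the 21 C2C12 libraries Cox6b2 was at 0.785 TPM or less. Without the libraries numbered 3, 61 members rose and the same 3 fell, and the member median was 0.49. Of about 14500 genes 8209 changed then, a lower share than that of the members. Of the 3 libraries of a group, number 3 at day 0 was the one whose removal alone raised the count, to 48 that rose and 3 that fell. No share of all genes is given for that removal. Since the numbers paired the primary libraries, a fit with the number as a block was also made, and it had 37 members that rose and 3 that fell. In the block fit 8277 of about 14350 genes changed, a higher share than that of the members. From day 4 to day 7 no member passed in primary cells, as 0% of all genes did, and the member median was 0.07. At an unadjusted p under 0.05 were 0 members and 4.64% of all genes, and DESeq2 called 0 members and 0.404% of all genes.

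The culture surface was compared within C2C12 cells, with the same plastic libraries as the reference for both gelatins. At day 4, 3 of 79 members were higher on patterned gelatin than on plastic and none lower, where 3.55% of all genes differed, 2.1% higher and 1.46% lower. Cox7a1 was at 141, 132 and 120 TPM on patterned gelatin and at 65.0, 70.4 and 71.0 TPM on plastic, without overlap, a difference of 0.67 ± 0.18 (adjusted p = 0.0445). Ndufs1, at 219, 220.2 and 216 TPM against 153, 156 and 160 TPM, differed by 0.33 ± 0.08 (adjusted p = 0.0299), and Sdha by 0.24 ± 0.06 (adjusted p = 0.0378). Leaving out any 1 of the 6 libraries ended all 3 calls. A fit of the 6 libraries alone had 10 members higher and 8 lower, and for unpatterned gelatin against plastic such a fit had 8 higher and 8 lower. In these fits 2413 of about 14000 and 3223 of about 13800 genes differed, shares near those of the members. In TPM, 51 members lay wholly above plastic and 6 wholly below, where 33.1% and 4.22% of all genes did. The median log2 ratio of mean TPM was 0.20 over members and 0.14 over all genes, so that on this scale the whole set of genes was shifted, and on the count scale both medians were −0.01. On unpatterned gelatin at day 4 the count was 1 of 79, Ndufs1 at 0.27 ± 0.08 (adjusted p = 0.0453), where 7.89% of all genes differed, 4.02% higher and 3.87% lower. There 13 members and 23.1% of all genes were at an unadjusted p under 0.05, and DESeq2 called 3 members and 12.2% of all genes.

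At day 7 the members as a set stood higher on patterned gelatin. Here 35 of 79 were higher than on plastic and 2 lower, where 23.8% of all genes differed, 12.9% higher and 10.9% lower, and the median was 0.24 over members and 0.01 over all genes. Higher members were found in each complex, 13 in complex I, 2 in complex II, 5 in complex III, 6 in complex IV and 9 in complex V. All TPM values lay above those on plastic for 39 members, as they did for 11.8% of all genes, and below for 2, as for 17.2% of all genes. On unpatterned gelatin 2 members were higher than on plastic and none lower, where 3.46% of all genes differed, 2.49% higher and 0.977% lower. Patterned gelatin against unpatterned gelatin, the comparison that tests the difference itself, had 0 of 79 members past the threshold, where 0.546% of all genes passed, 0.397% higher and 0.148% lower. Its member median was 0.20, or 0.12 without replicate 3 of patterned gelatin. At an unadjusted p under 0.05 were 30 members and 19.8% of all genes, and DESeq2 called 4 members, all higher, and 3.29% of all genes. At day 4 that comparison had 0 members past the threshold by edgeR and by DESeq2, where 0.00674% and 0.943% of all genes passed. At an unadjusted p under 0.05 were 0 members and 8.63% of all genes.

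**Figure D3:**
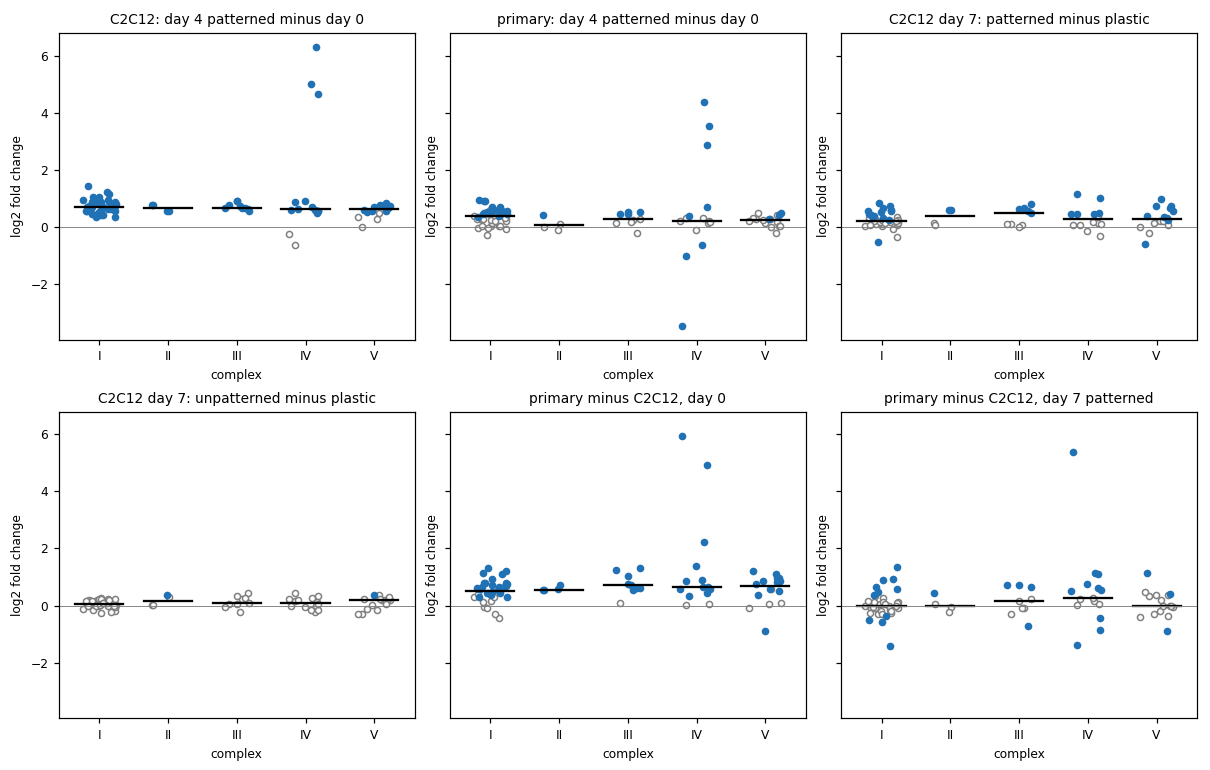
Log2 fold changes (vertical axes) of each tested member in 6 comparisons, by complex (horizontal axes). Filled points passed an adjusted p under 0.05, open points did not, and bars are medians. From C2C12 myoblasts on plastic to day 4 on patterned gelatin 72 of 79 members are filled and 3 points of complex IV stand above 4. At day 7 many more points are filled for patterned than for unpatterned gelatin, 37 against 2.

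The values at day 7 on patterned gelatin were graded from one member to the next. Cox7a1 was at 84.2, 84.8 and 83.9 TPM on plastic, 98.4, 138 and 98.0 on unpatterned gelatin and 149, 145 and 188 on patterned gelatin, and the 3 groups did not overlap. It was higher on patterned gelatin than on plastic by 1.04 ± 0.18 (adjusted p = 0.00181), and its difference from unpatterned gelatin, 0.69 ± 0.18, had an adjusted p of 0.0799. Atp5g3, the most used of the 3 genes for the rotor ring subunit c of complex V, was at 685, 749 and 761 TPM on plastic, 908, 1032 and 904 on unpatterned gelatin and 1067, 1141 and 1180 on patterned gelatin, again without overlap. It was higher by 0.72 ± 0.10 on patterned gelatin (adjusted p = 0.000405) and by 0.38 ± 0.10 on unpatterned gelatin (adjusted p = 0.039). Sdhc was the other member higher on unpatterned gelatin, by 0.36 ± 0.09 (adjusted p = 0.0407), and it was higher by 0.62 ± 0.09 on patterned gelatin (adjusted p = 0.000776). Uqcrc1, a core protein of complex III, was higher by 0.82 ± 0.15 on patterned gelatin (adjusted p = 0.00202). Cox6a2 and Cox8b were at 0.38 ± 0.20 and 0.19 ± 0.17 (adjusted p = 0.159 and 0.406).

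**Figure D4:**
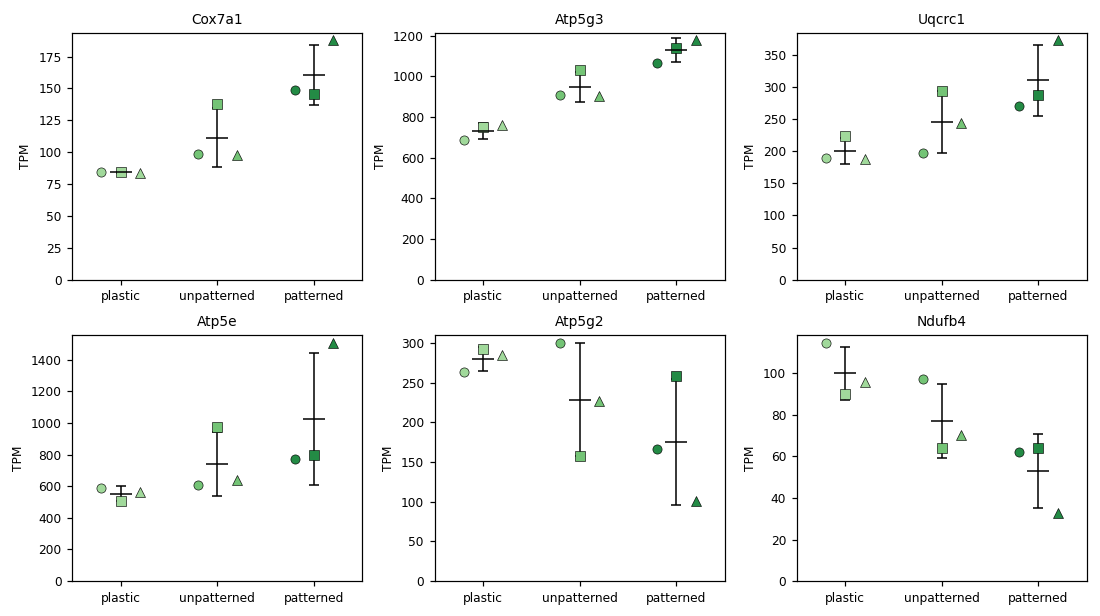
TPM of 6 members (vertical axes, from 0) in C2C12 myotubes at day 7 on plastic, unpatterned gelatin and patterned gelatin. Each point is 1 library (circle, square and triangle for replicates 1, 2 and 3), with the mean and SD as bars. Cox7a1 and Atp5g3 have 3 separate ranges, while in Atp5e, Atp5g2 and Ndufb4 replicate 3 of patterned gelatin is the extreme point, at 1508, 100.3 and 32.6 TPM.

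Here too replicate 3 carried part of the difference. It held the extreme value for Cox6a1, Atp5e, Atp5g2 and Ndufb4. Cox6a1 differed from plastic by 1.17 ± 0.31 (adjusted p = 0.0133), with 648 TPM in replicate 3 beside 259 and 268 in the others, and Atp5e by 0.99 ± 0.26 (adjusted p = 0.0127). Atp5g2 was at −0.61 ± 0.20 (adjusted p = 0.0374) and Ndufb4 at −0.51 ± 0.16 (adjusted p = 0.0288). Without replicate 3, 2047 of about 15010 genes differed, a share close to that of the members, and the member median was 0.17. Then 12 members were higher and none lower, and all 12 had been called with it. Among them were Ndufs7 and Ndufb10 of complex I, Sdhc of complex II, Cyc1, Uqcrc1 and Uqcrfs1 of complex III, Cox5a and Cox7a1 of complex IV, and Atp5a1, Atp5b and Atp5g3 of complex V. Cox7a1 was then at 0.83 (adjusted p = 0.0072) and Atp5g3 at 0.60 (adjusted p = 0.0016), whereas Cox6a1 was at 0.48 and Atp5e at 0.50 (adjusted p = 0.12 and 0.0988). Without replicate 2 of plastic, 18 members were higher and 2 lower, and no share of all genes is given for that removal. A fit of the 6 libraries alone, which estimates the spread from them only, called 0 members. It called 21 of about 13920 genes, so that few calls were made in it for any gene.

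Other readouts moved with the surface at day 7, and their part in the members' difference was not tested. Transcripts of the mitochondrial genome, which encodes the remaining subunits, made up 4.16%, 3.52% and 1.70% of TPM in replicates 1, 2 and 3 of patterned gelatin and 6.41% to 8.46% on plastic, and 10 of the 13 were lower while none was higher, or 7 without replicate 3. Summed fibroblast markers were at 844.7 to 1313 TPM on patterned gelatin and 467 to 840 on plastic, and 3 of the 6 tested were higher. Of the 8, Lum and Thy1 stayed below 1 TPM in both groups and Fap at or below 1.18 TPM. Of 15 genes of the hypoxia response, 8 were higher on patterned and 8 on unpatterned gelatin and none lower. Summed proliferation markers were at 134.1 to 165 TPM on patterned gelatin and 153.3 to 224.7 on plastic. Without replicate 3, 3 of the 6 were lower on patterned gelatin and 0 higher.

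Primary cells and C2C12 cells were compared at each stage, and the largest separation of the members was at the myoblast stage. At day 0, 61 of 80 members were higher in primary cells and 1, Atp5g2, was lower, where 57.5% of all genes differed, 29.6% higher and 27.9% lower, and the median was 0.60 over members and −0.01 over all genes. At day 4 on patterned gelatin, 30 were higher and 3 lower, where 50.6% of all genes differed, 25.7% higher and 25% lower, with a median of 0.26. With library totals 19 were higher and 9 lower, with a median of 0.12 over members and −0.15 over all genes. In TPM 23 members lay wholly above C2C12 cells and 27 wholly below, where 19.3% and 38.7% of all genes did. The median log2 ratio of mean TPM was 0.03 over members and −0.19 over all genes. On each of these scales the member median at day 4 was above that of all genes. At day 7, 20 were higher and 9 lower, where 51.5% differed, 25% higher and 26.4% lower, with a median of 0.04. With library totals, which moved the median of all genes by −0.15 at day 7, 16 were higher and 19 lower, so that no common direction held under both scalings. Without the libraries that stood apart the counts were 47 and 4, 36 and 10, and 30 and 7 at days 0, 4 and 7, and the medians 0.46, 0.25 and 0.22. Of about 15610 genes, 9859, 8789 and 8476 differed then at days 0, 4 and 7. Fibroblast markers summed to 699.9 to 816.8 TPM in C2C12 myoblasts and 221.6 to 298.4 in primary ones, and the 6 proliferation markers to 1126 to 1327 and 500.4 to 618.5 TPM. Myog, a factor of early differentiation, was at 136.6 to 189.4 TPM in C2C12 myoblasts and 254.5 to 719.2 in primary ones, and the sum of the 10 myotube markers was also higher in primary myoblasts, as given above. Culture differed as well. Per the study's methods, primary myoblasts had another growth medium, with more serum and with basic fibroblast growth factor. The methods also describe matrix-coated dishes for them, where the labels say plastic. The part of all these in the day 0 difference was not tested.

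The muscle forms Cox6a2 and Cox8b were higher in primary cells on every day. Cox6a2 differed by 4.91 ± 0.33 at day 0, 1.54 ± 0.23 at day 4 and 1.10 ± 0.23 at day 7 (adjusted p = 6.28e-12, 4.88e-06 and 0.000252). Cox8b differed by 2.24 ± 0.33, 1.67 ± 0.23 and 1.14 ± 0.22 (adjusted p = 3.76e-06, 1.45e-06 and 0.000162). Cox7a1 went the other way at day 7, at −0.86 ± 0.24 (adjusted p = 0.00467), with 109, 87.2 and 70.1 TPM in primary cells beside 149, 145 and 188 TPM in C2C12 cells. Cox7a2l, known for its role in joining complexes III and IV, was higher in primary cells by 1.38 ± 0.10, 0.75 ± 0.10 and 0.74 ± 0.10 (adjusted p = 1.38e-11, 5.1e-07 and 6.05e-07). Cox6b2 passed on every day (adjusted p = 1.59e-06, 0.000451 and 0.0154), but with C2C12 libraries at or near 0 no fold is given. By day 7 it was at 1.61, 1.5 and 0.23 TPM in primary cells.

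In complex I, Ndufb7, an accessory subunit facing the intermembrane space, was the member most below C2C12 cells, at −0.95 ± 0.19 at day 4 and −1.43 ± 0.19 at day 7 (adjusted p = 0.000162 and 7.96e-07). Its levels at day 7 were 186, 175 and 144 TPM in primary cells and 385, 397 and 643 TPM in C2C12 cells. Ndufs8, an iron-sulphur core subunit, was lower at −0.47 ± 0.14 and −0.35 ± 0.14 on these days (adjusted p = 0.00575 and 0.0331). Ndufa12 was higher at day 7 by 1.35 ± 0.21 (adjusted p = 1.03e-05), and by 1.06 without the libraries that stood apart. Atp5e was lower at day 7, at −0.91 ± 0.23 (adjusted p = 0.00229), but at −0.33 without those libraries (adjusted p = 0.185). Cox6a1 was lower, at −1.37 ± 0.30 at day 7 (adjusted p = 0.000481), and at −0.76 without them (adjusted p = 0.00768).

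Atp5g1, Atp5g2 and Atp5g3 encode the same mature subunit c, and their mix differed between the cells. Atp5g2 held 29.47% to 31.77% of their summed TPM in C2C12 myoblasts, 18.21% to 26.48% over the C2C12 libraries at day 4 and 10.26%, 14.22% and 5.51% in replicates 1, 2 and 3 of patterned gelatin at day 7. In primary cells it held 8.50% to 15.67% over all 9 libraries. Atp5g2 was lower in primary cells at days 0 and 4, at −0.90 ± 0.23 and −0.70 ± 0.23 (adjusted p = 0.00173 and 0.0132), and at 0.39 ± 0.23 at day 7 (adjusted p = 0.164). Of the distinct 31-base stretches of its transcripts, 37.5% were found also in other genes, 4 pseudogenes, so reads of Atp5g2 can be split with these. The same share was 66.5% for Atp5l, 34.8% for Uqcrb and 33.2% for Ndufa13.

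For part of the members the change from day 0 to day 7 itself differed between the cells. In the test of that difference, primary minus C2C12 cells, 38 of 80 members were lower and 1, Atp5g2, higher, where 32% of all genes passed, 18.1% lower and 14% higher, and the median was −0.57 over members and −0.03 over all genes. Lower members were 18 of complex I, 3 of complex II, 2 of complex III, 9 of complex IV and 6 of complex V. The lowest values were −3.81 ± 0.41 for Cox6a2 (adjusted p = 1.78e-07), −2.02 ± 0.33 for Atp5e (adjusted p = 6.49e-05) and −1.52 ± 0.46 for Ndufa2 (adjusted p = 0.0132), and Atp5g2 was at 1.28 ± 0.32 (adjusted p = 0.00383). Without the libraries that stood apart, 18 were lower and 1 higher, with a median of −0.18 over members and 0.02 over all genes. Of about 15610 genes 5884 passed then, a higher share than that of the members. Cox6a2 was then at −3.24 (adjusted p = 5.76e-06), Atp5e at −1.32 (adjusted p = 0.00089), Ndufa2 at −0.71 (adjusted p = 0.0386) and Atp5g2 at 1.00 (adjusted p = 0.00513).

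Several members were split over transcripts whose mix was not the same in all groups, as described here without a test. Ndufv3, an accessory subunit of complex I, has a long form with an additional exon of 1092 bases (chr17:31527310-31528401, + strand) and a short form that skips it. The long form, of 1537 bases, held 12.25% to 13.07% of Ndufv3 TPM in C2C12 myoblasts and 12.01% to 14.09% in primary myoblasts. In each of the 8 myotube groups it was at most 5.51%. In TPM it was at 13.8 to 18.4 in C2C12 myoblasts and at 7.12 to 11.3 on patterned gelatin at day 7, while the short form, of 485 bases, went from 83.9 to 113 to 279 to 357. The junctions that tell them apart are shown here, from the GENCODE M21 transcripts on GRCm38, as 30 bases of exon 2 (chr17:31521663-31521692) in lower case and the first 30 bases of the exon that follows in capitals, which is chr17:31527310-31527339 in the long form and chr17:31531110-31531139 in the short one.
Ndufv3 long form: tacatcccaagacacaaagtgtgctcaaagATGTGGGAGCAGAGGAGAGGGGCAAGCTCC
Ndufv3 short form: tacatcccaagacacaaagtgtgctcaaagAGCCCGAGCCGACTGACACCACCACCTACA

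Sdhc and Cox5b differed in this way between the cell types. Sdhc-203, an annotated fragment of 298 bases, held 38.05% to 57.58% of Sdhc TPM in the 21 C2C12 libraries and 2.33% to 15.4% in the 9 primary ones, but only 6.44% to 13.18% and 0.201% to 1.81% of Sdhc counts. The direction for Sdhc at day 0 depends on the scale. Counts gave 0.59 ± 0.11 in favour of primary cells (adjusted p = 5.06e-05), whereas TPM was 208, 207 and 236 in primary and 242, 328 and 293 in C2C12 cells. With an offset for effective length the fold change was −0.27 (adjusted p = 0.0679). Cox5b-205, a transcript of 362 bases with no annotated protein, held 59.92% to 67.07% of Cox5b TPM in primary cells and 6.37% to 50.63% in C2C12 cells, where replicate 3 of patterned gelatin at day 7 was the lowest.

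**Figure D5:**
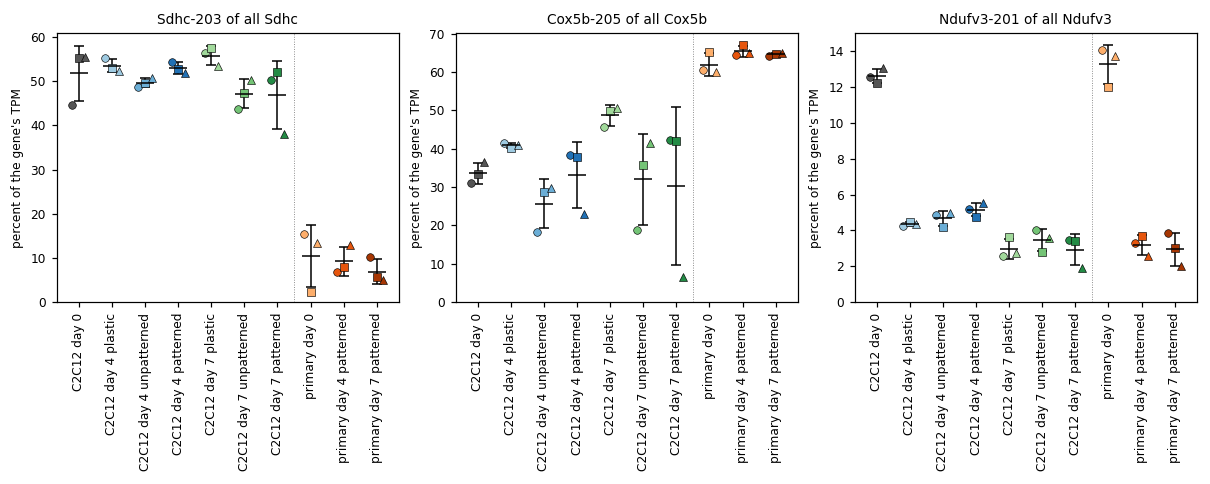
Share of 1 transcript in the TPM of its gene (vertical axes, percent) for Sdhc-203, Cox5b-205 and the long form of Ndufv3 in the 10 groups. Each point is 1 library (circle, square and triangle for replicates 1, 2 and 3), with the mean and SD as bars. Sdhc-203 is at 38.05% to 57.58% in C2C12 and at most 15.4% in primary libraries, Cox5b-205 is above 59% only in primary libraries, and the long form of Ndufv3 is above 12% only in myoblasts.

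The genes that build, feed and regulate these complexes were followed from C2C12 myoblasts on plastic to day 4 on patterned gelatin, where 60.1% of all genes changed. Of the assembly factors, 7 of 16 for complex I, 2 of 4 for complex II, 5 of 6 for complex III, 11 of 20 for complex IV and 4 of 5 for complex V rose, and 1 each of complexes IV and V fell. Of the carriers 4 of 7 rose, of the coenzyme Q synthesis genes 9 of 13 rose and 2 fell, and of the 17 regulators 9 rose and 3 fell. Ppargc1a, the coactivator PGC-1alpha, was at 1.46, 1.36 and 1.43 TPM in myoblasts and 9.93, 8.03 and 8.37 at day 4, a rise of 2.75 ± 0.16 (adjusted p = 1.72e-11), and was lower again at day 7, at −1.04 ± 0.15 (adjusted p = 0.000332). It rose by 2.70 ± 0.51 in primary cells (adjusted p = 0.00311). Esrra, an estrogen-related receptor, rose by 0.74 ± 0.14 (adjusted p = 0.000186), while Nrf1, encoding the factor NRF1, was at −0.56 ± 0.08 (adjusted p = 3.72e-06). Gabpa and Tfam were at −0.04 ± 0.11 and 0.03 ± 0.14 (adjusted p = 0.757 and 0.858).

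At day 7, patterned gelatin against plastic, 5 of 16 complex I and 8 of 20 complex IV assembly factors were higher, as were 1 of 4 for complex II and 1 of 5 for complex V, while for complex III 1 of 6 was lower. Of the carriers 4 of 7 were higher and 1 lower, of the coenzyme Q synthesis genes 6 of 13 were higher, and of the regulators 5 of 17 were higher and none lower. Perm1, a muscle regulator induced by PGC-1alpha and the estrogen-related receptors, was at 0.862, 0.925 and 0.606 TPM on patterned gelatin and 0.221, 0.42 and 0.4 on plastic, a difference of 1.27 ± 0.24 (adjusted p = 0.00298). Esrra was higher by 0.74 ± 0.14 (adjusted p = 0.00322), Tfam, which packs and transcribes mitochondrial DNA, by 0.44 ± 0.14 (adjusted p = 0.0269), and Slc25a4, the muscle form of the ADP and ATP carrier, by 0.68 ± 0.16 (adjusted p = 0.00806). Replicate 3 of patterned gelatin held the highest of the 6 values of all but Perm1. Without it, Perm1 was at 1.34, Esrra at 0.53, Slc25a4 at 0.37 and Tfam at 0.19 (adjusted p = 0.00482, 0.0148, 0.0463 and 0.219). The counts were then 1 of 16 for complex I assembly, 1 of 20 for complex IV assembly, 0 for the other assembly lists, 3 of 7 carriers, 3 of 13 coenzyme Q genes and 4 of 17 regulators, all higher. Cycs, cytochrome c, was at −0.35 ± 0.16 (adjusted p = 0.112).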

How the data were processed

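Total RNA of 30 cultures was sequenced in paired ends from NEBNext libraries. The authors quantified the reads with kallisto against the mouse genome mm10 (submitters' processing notes), with neither the kallisto version nor the annotation stated, and deposited estimated counts and TPM for 88198 transcripts in each library. Here 86031 of these were matched to GENCODE M21 and summed per gene, and the 2167 unmatched, 0.723% to 0.893% of counts, were left out. TPM describe levels per length, and rounded estimated counts were tested. The edgeR 4.0.16 quasi-likelihood test was run in R 4.3.3 with TMM factors and filterByExpr, in fits of the 21 C2C12 libraries (14844 genes), the 9 primary libraries (14352) or all 30 (15447), with p-values adjusted over all genes (Benjamini-Hochberg). SE is the log2 fold change divided by the root of F. Members and gene lists were chosen with earlier results of these data known.

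Genes named are the pairs with tissue forms, the Sdh genes, the 3 top and 3 bottom called members of each comparison, the extremes of level per complex and some regulators. Others (Ndufb9, Uqcrc1, Uqcrfs1, Ndufs1 and Atp5b where they are not among these, the members called without 1 library, and the transcripts of Ndufv3, Sdhc and Cox5b) were chosen after their values were seen. Per the study's methods the 3 replicates were separate cultures. The numbers of the labels paired the primary libraries, since all 9 same-number correlations of deviations from group means lay between 0.258 and 0.856, but not the C2C12 libraries (−0.483 to 0.598, 63 pairs). Alternatives were DESeq2 1.42.0, library totals, no filter, an offset for effective length, a replicate block, only the groups compared, and leaving out each library. Leaving out the libraries that stood apart was added after seeing the data. On simulated data 93%, 31% and 72% of genes changed by 1 (log2) were found for patterned against plastic at day 7, primary day 7 against day 4, and primary against C2C12 at day 7. The values of 1 member are not reported here.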

Additional observations from a re-analysis of the deposited data

Results flagged for a closer look

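For 39 members the change from day 0 to day 7 differed between primary and C2C12 cells, by edgeR's test of that difference. Only 16 of them are listed here. Others named above also passed, among them Uqcrh of complex III at −1.34 and Ndufb7 of complex I at −1.01 (adjusted p = 0.000158 and 0.00495). Values below are primary minus C2C12 changes on the log2 scale. In complex I they were −1.52 for Ndufa2 and −0.75 for Ndufa4. In complex II they were −0.76 for Sdhb, −0.82 for Sdhc and −0.49 for Sdhd. In complex IV the common forms were at −0.60 for Cox4i1, −1.41 for Cox6a1, −0.87 for Cox6b1, −0.64 for Cox7a2l and −0.64 for Cox8a, and the muscle forms at −3.81 for Cox6a2, −1.48 for Cox7a1 and −1.10 for Cox8b. In complex V they were −2.02 for Atp5e, −0.99 for Atp5g3 and 1.28 for Atp5g2. Without C2C12 patterned replicate 3 at day 7 and the primary libraries numbered 3, the adjusted p was above 0.05 for Ndufa4, Sdhb, Sdhd, Cox4i1, Cox6a1, Cox6b1 and Cox7a1. With 3 libraries a group, single libraries were not tested as outliers.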

How the results depend on the processing

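Counts of members past the threshold are given as all called, with higher and lower where both occur. Fitting only the groups compared gave 0 for day 7 minus day 4 on patterned gelatin, 18 (10 higher, 8 lower) for patterned minus plastic at day 4, 0 at day 7, 16 (8 and 8) for unpatterned minus plastic at day 4, 0 at day 7, and 21 (1 and 20) for the difference between the cells. In these fits 224, 2413, 21, 3223, 70 and 2960 genes were called in this order, of about 13800 to 14980 tested. Without the libraries that stood apart the counts were 4 for day 7 minus day 4 in C2C12 cells, 64 for day 4 minus day 0 in primary cells, 12 for patterned minus plastic at day 7 and 19 for the difference between the cells. Library totals gave 17 for day 4 minus day 0 in primary cells, and the length offset 1 for patterned minus plastic at day 4. DESeq2 gave 3 and 4 for unpatterned minus plastic at days 4 and 7 and 4 for patterned minus unpatterned at day 7. No filter gave 0 for unpatterned minus plastic at day 4. The cause was not tested. A replicate block gave 0 for unpatterned minus plastic on both days, 72 and 20 for the C2C12 time steps, 40 and 0 for the primary ones, 2 and 37 for patterned minus plastic at days 4 and 7, 62, 33 and 31 between the cells at days 0, 4 and 7 and 44 for their difference. In C2C12 cells the same numbers did not pair the samples (7 of 21 libraries were closest to their own number, 8 of 9 in primary cells). Sdhc at day 0, primary minus C2C12, reversed to −0.27 with the length offset.

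Leaving out 1 library gave 69 to 72 (C2C12, day 4 minus day 0), 4 to 34 (day 7 minus day 4), 13 to 51 and 0 to 0 (primary), 0 to 0 and 12 to 37 (patterned minus plastic, days 4 and 7), 0 to 1 and 0 to 5 (unpatterned minus plastic), 0 to 0 and 0 to 5 (patterned minus unpatterned), 47 to 65, 26 to 33 and 25 to 30 (primary minus C2C12, days 0, 4 and 7) and 25 to 44 (their difference). The count for day 7 minus day 4 moved by over 1.5 times without replicate 1 (14), 2 (10) or 3 (7) of day 4 and replicate 1 (34) or 3 (4) of day 7, that for primary day 4 minus day 0 without any primary library but number 3 of day 4 (20, 19, 13, 15 and 51), that for patterned minus plastic at day 7 without plastic 2 (20) or patterned 3 (12), and that for the difference between the cells without primary 2 of day 7 (25). Of 273 values of named genes, 263 kept direction and side of the threshold under DESeq2, 265 with the block, 263 with no filter, 254 with library totals, 248 with the length offset (16 lost the call, 8 gained it, 1 reversed) and 217 of 270 with only the groups compared (37 lost it, 16 gained it). Without the libraries that stood apart 144 of 181 did (23 lost it, 14 gained it). With 3 libraries a group and a biological coefficient of variation of 0.293 in primary cells against 0.119 in C2C12 cells, the absence of calls between primary days 4 and 7 does not show equal levels.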
